A study of Homo sapiens with 4 samples.

Results

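The expression of 32 known target genes of p53 was followed in 4 RNA-seq libraries of U87MG cells, a human glioblastoma cell line. The genes were taken from a list of direct p53 targets and matched by Ensembl ID and GENCODE 29 symbol, and they make up 32 of the 58226 genes in the count tables. Temozolomide-resistant U87MG cells (R-U87MG) were kept in medium with 50 µM temozolomide (TMZ), an alkylating drug, and received non-targeting siRNA (si-NC) or siRNA against the deacetylase HDAC6 (si-HDAC6). Parental U87MG cells, for which no TMZ is named, received si-NC or siRNA against the long non-coding RNA *LINC00461* (si-*LINC00461*). RNA was extracted at 72 h, and each of the 4 conditions is 1 library, so that there is no replicate error and no test of a condition could be made. R-U87MG is 1 resistant derivative of 1 cell line, and resistance cannot be told apart from the drug in its medium. The siRNA concentration of these libraries is not given in the sources used here. The authors list 1 target sequence for *LINC00461*, but several for *HDAC6* and for si-NC. Effects of that 1 sequence on other RNAs therefore cannot be told apart from loss of *LINC00461*. For si-HDAC6, with 1 library, effects on other RNAs cannot be told apart from loss of *HDAC6* either.

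p53 is a transcription factor that is stabilized by DNA damage and other stress and that binds a response element made of a pair of similar half-sites in or near its targets. Its targets slow the cell cycle, act in DNA repair, prime cells for apoptosis through death receptors and mitochondrial proteins, and adjust metabolism, redox balance and autophagy. Alkylating drugs such as TMZ are known to activate the p53 pathway in cells with functional p53. Several of these genes are also switched on by other factors, such as ATF4 and CHOP of the integrated stress response, which are known to act on *GDF15* and *TNFRSF10B*.

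The response element was searched for in RefSeq promoter sequences (GRCh38.p14), from 250 bases before to 50 bases after each start site, on both strands. Of the 32 genes 25 had such a window, and *CMBL*, *TNFRSF10B*, *GADD45A*, *PHLDA3*, *RRM2B*, *TP53INP1* and *TNFRSF10A* did not. A half-site without mismatch was present in 7 of the 25 genes (28%), against 8.06% of 27305 genes with a window. A pair of half-sites with at most 2 mismatches and a spacer of at most 13 bases was present in 5 of the 25 (20%), against 3.62% of all genes. The sequences shown here are those of *DDB2* and *AEN*, each past 2-fold in a comparison below, and of *FAS*. The death receptor gene *FAS* stayed within 2-fold under the main normalization below, but not by total counts between the si-NC libraries. The sequences are written 5′ to 3′ on the strand of the gene, with the 4-base core of each half-site in capitals.
DDB2: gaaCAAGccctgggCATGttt
AEN: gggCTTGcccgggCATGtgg
FAS: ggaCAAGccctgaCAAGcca
The *DDB2* sequence lies at chr11:47214979-47214999 on the plus strand, in a non-coding part of an exon, and matched the element with no mismatch and a spacer of 1 base. *DDB2* was the 1 of 25 genes (4%) with such a match, against 0.0366% of all genes. The *AEN* sequence, at chr15:88621306-88621325 on the plus strand, and the *FAS* sequence, at chr10:88991309-88991328 on the plus strand, each had 2 mismatches, no spacer and a place in a non-coding part of an exon. The other matches to a pair were those of *PANK1* (1 mismatch, spacer of 8 bases) and *FDXR* (2 mismatches, spacer of 10 bases). The *PANK1* match, which lay in a coding exon, was thus closer than those of *AEN* and *FAS*. *PLK2* and *SESN1* held a single half-site. The genes were chosen as direct p53 targets, so that these shares describe the list and are not a test. A match is a description of the letters, and binding was not measured in these libraries.

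Library totals ranged from 12596072 counts (R-U87MG si-HDAC6) to 20027866 counts (U87MG si-NC). As a check of the labels, *HDAC6* counts were 296 in the control and 67 after si-HDAC6 (log2 ratio −1.74), and *LINC00461* counts were 363 and 73 (log2 ratio −2.12). Of the markers, *VIM* lay between 3170 and 6940 CPM (counts per 1000000 counts of the library) and *CD44* between 1600 and 1770 CPM, whereas the astrocyte marker *GFAP* had 0 to 13 counts and *AQP4* had 0 in all 4 libraries. The summed level of 2 endothelial markers was 2.54 to 3.19 CPM in 3 libraries and 25.3 CPM after si-*LINC00461*, nearly all of it *PECAM1*, and *VIM* was 6330 CPM in U87MG si-NC and 3170 CPM after si-*LINC00461*. The 3 epithelial markers summed to 8.89 CPM in U87MG si-NC and 13.5 CPM after si-*LINC00461*, and the 3 immune markers to 0 to 0.238 CPM. Whether these markers have a part in the results for si-*LINC00461* was not tested. In bulk RNA, fewer cells with a transcript and less of it per cell cannot be told apart.

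Levels differed widely among the genes. CPM per kilobase of exons is used here to set genes beside each other. In U87MG si-NC the highest level was that of the death receptor gene *TNFRSF10B* at 61.7 CPM per kb, followed by *PHLDA3* at 39.2 and *GDF15* at 28.3 CPM per kb. In R-U87MG si-NC the order was *GDF15* at 59.5, *TNFRSF10B* at 57.7 and *GADD45A* at 52.1 CPM per kb, and the intervals of the leading pair overlapped. After si-*LINC00461*, *PHLDA3* led at 57.7 CPM per kb and *TNFRSF10B* stood at 21.3 CPM per kb. At the low end, *TNFRSF10A* lay between 0.108 and 0.457, *ACER2* between 0.602 and 0.913 and *PANK1* between 0.771 and 0.987 CPM per kb in the 4 libraries, and the intervals of *ACER2* and *PANK1* overlapped in each library. Levels in R-U87MG and in U87MG come from pairs of libraries that the authors scaled separately, a scaling that was undone here.

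**Figure D1:**
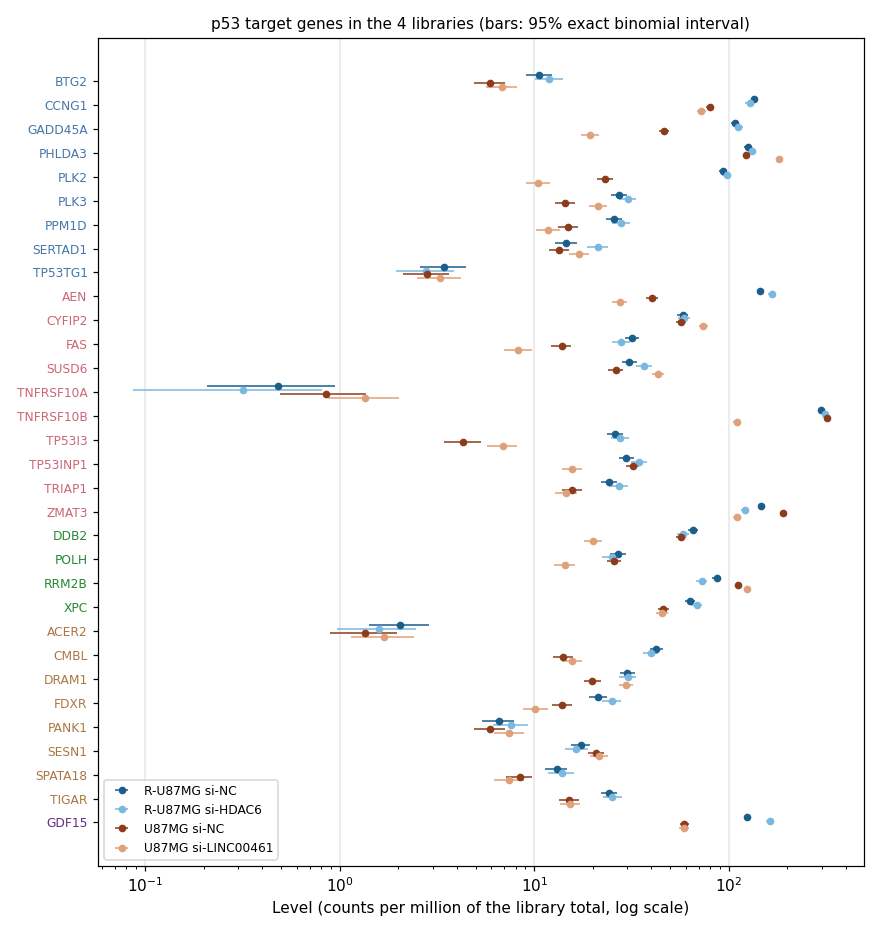
Levels of the 32 p53 target genes in each of the 4 libraries, in CPM of the library total on a log axis, with 95% exact binomial intervals as lines and gene names coloured and ordered by role. *TNFRSF10A* lies lowest, at 0.318 to 1.35 CPM, and *TNFRSF10B* goes from 318 CPM in U87MG si-NC to 110 CPM after si-*LINC00461*. Levels of different genes are not set beside each other on this scale.

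Ratios were taken between counts after TMM normalization of each pair of libraries, on the log2 scale with a pseudocount of 0.5, so that ratios of genes with few counts are understated. Ranges in parentheses are 95% exact binomial (Clopper-Pearson) intervals, which cover counting error only, and sequenced fragments are not independent molecules. A gene was compared where its mean CPM in the pair was at least 1 and was counted as changed at a ratio of 2-fold or more. Where 4 values in CPM follow each other without names, they stand for R-U87MG si-NC, R-U87MG si-HDAC6, U87MG si-NC and U87MG si-*LINC00461*.

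With si-HDAC6 in R-U87MG, no p53 target changed by 2-fold, and the differences were small in both directions. Of the 31 genes compared 20 were higher (64.5%, against 48.9% of all genes) and 11 lower. None reached even 1.5-fold, against 5.2% of all genes. Among all 13120 genes compared, 0.694% were higher and 0.747% lower by 2-fold or more (1.44% in all). The median log2 ratio of the targets was 0.05 (all genes −0.01), and their range of −0.36 to 0.53 was close to that between the 5th and 95th percentiles of all genes (−0.42 to 0.44). The interval excluded 0 for 10 targets, 5 above and 5 below, or 32.3% of those compared, against 13.8% above, 16.4% below and 30.3% in all of the genes compared. The highest were *SERTAD1* and *GDF15*, and the lowest with over 100 counts in each library were *ZMAT3* and *RRM2B*.

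With si-*LINC00461* in U87MG, 5 of the 32 targets were lower by 2-fold or more and none was higher by 2-fold. They were *TNFRSF10B*, *DDB2*, *GADD45A*, *PLK2* and *TP53INP1*, at 2.02- to 2.87-fold lower. By upper-quartile scaling or with the libraries thinned to the smallest total, *TP53INP1* fell short of 2-fold (−0.99 and −0.95 on the log2 scale) and 4 remained. The 5 are 15.6% of the targets, against 8.17% of 13210 genes that were lower and 5.42% that were higher by 2-fold or more (13.6% in all). At a threshold of 1.5-fold, 8 of the 32 targets were lower and 4 of the 32 higher, against 16.8% and 14.2% of all genes. The targets were spread to both sides, in that 17 were higher (53.1%, against 49.8% of all genes) and 15 lower. The median log2 ratio of the targets was 0.02 (all genes −0.003). Their range, −1.52 to 0.74, compares with −1.33 to 1.04 between the 5th and 95th percentiles of all genes. The interval lay above 0 for 8 targets and below 0 for 12 (62.5%), against 33.1% and 33.4% of all genes (66.4%).

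Between the si-NC libraries, 4 of 31 targets compared were higher in R-U87MG than in U87MG by 2-fold or more and none was lower by 2-fold. They were *TP53I3*, *PLK2*, *AEN* and *CMBL*, at 2.50- to 5.01-fold higher. This is 12.9% of the targets compared, against 11.2% of 13349 genes that were higher, whereas 15% of all genes were lower by 2-fold or more (26.2% in all). At 1.5-fold, 8 of the 31 targets were higher and 2 of the 31 lower, against 23.1% and 25.1% of all genes (48.1% in either direction). The interval lay above 0 for 17 targets and below 0 for 8 (80.6%), against 39.4% and 38.8% of all genes (78.2%). The median log2 ratio was 0.34 (all genes 0.02), with a range of −0.63 to 2.33. Of the targets 19 were higher (61.3%, against 51.1% of all genes) and 12 lower. This comparison depends on scaling: by total counts the median of all genes moved up by 0.26. By that scaling 7 of 31 targets were higher by 2-fold or more, *GDF15*, *FAS* and *GADD45A* being the ones added. Of all 13349 genes compared, 2399 were higher by 2-fold or more by total counts, against 1494 with TMM. Ratios above 0 were held by 8444 of the 13349 genes by total counts, against 6823 with TMM. Of the 12 lower targets 7 had a ratio above 0 by total counts (*DDB2*, *POLH*, *PHLDA3*, *SUSD6*, *CYFIP2*, *PANK1* and *SERTAD1*). The levels in CPM are over library totals, as in that alternative. The comparison shares a control library with each of the 2 knockdown comparisons.

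**Figure D2:**
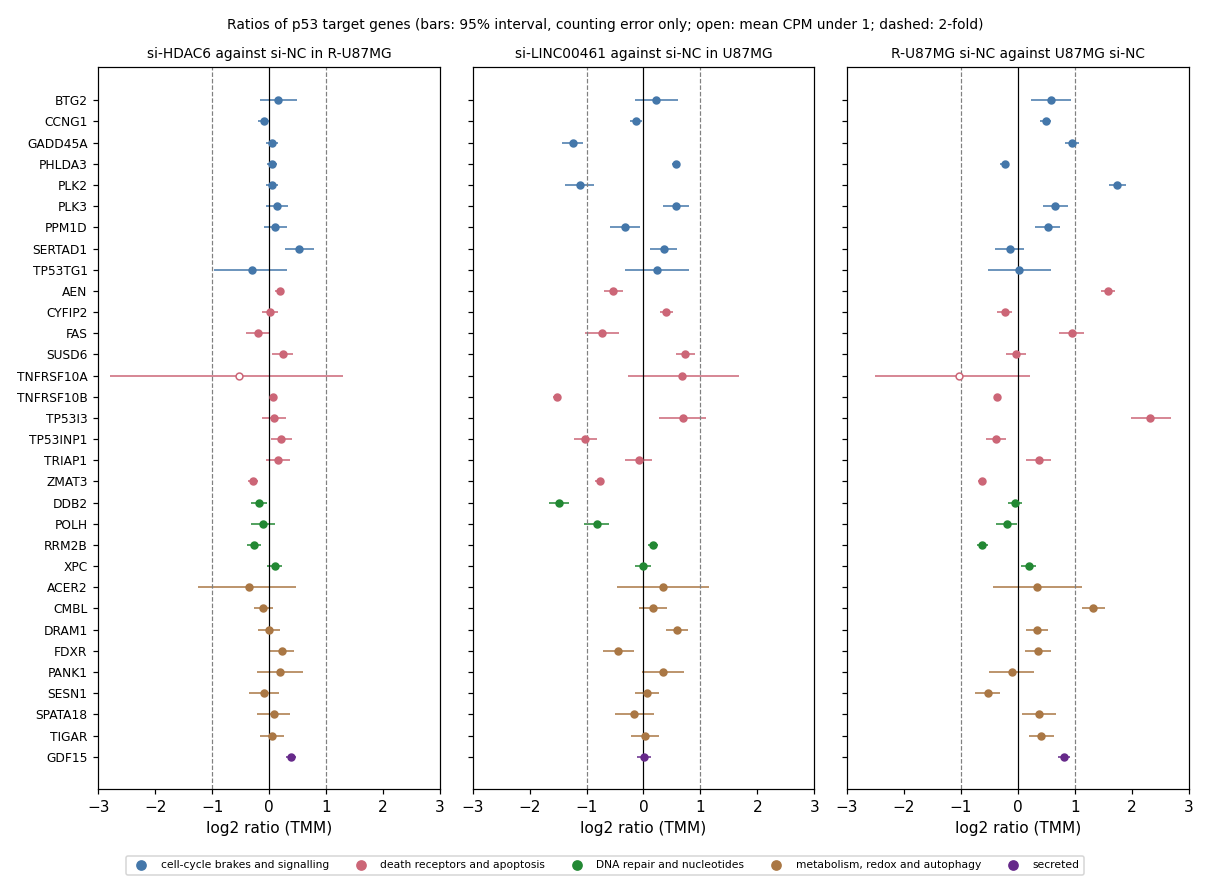
Log2 ratios of the 32 p53 target genes in the 3 comparisons, with genes in rows ordered by role, 95% intervals of counting error as lines and 2-fold as dashed lines, with open points for genes under a mean of 1 CPM. Filled points lie within 2-fold in the si-HDAC6 panel, 5 lie below it in the si-*LINC00461* panel and 4 lie above it in the panel of R-U87MG against U87MG.

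Among the targets that slow the cell cycle or act in signalling, *GADD45A* and *PLK2* carried the large differences. *GADD45A*, whose stress-induced protein binds cell-cycle and repair factors (GRCh38 chromosome 1, plus strand, 67685061 to 67688338), was at 108 CPM in R-U87MG si-NC, 112 after si-HDAC6, 46.4 in U87MG si-NC and 19.4 after si-*LINC00461*. The level was thus highest in the R-U87MG libraries and lowest after si-*LINC00461*, where the log2 ratio was −1.24 (−1.43 to −1.06). Its ratio was 0.05 (−0.05 to 0.15) with si-HDAC6 and 0.95 (0.84 to 1.07) in R-U87MG against U87MG. *PLK2*, a polo-like kinase (chromosome 5, minus strand, 58453982 to 58460260), was at 93.0, 97.3, 23.1 and 10.5 CPM in the same order of libraries. Its log2 ratio was −1.12 (−1.37 to −0.87) with si-*LINC00461* and 1.75 (1.60 to 1.90) in R-U87MG against U87MG, and with si-HDAC6 its ratio was 0.05 (−0.06 to 0.16). The related kinase *PLK3* lay on the other side of 0 with si-*LINC00461*. It was at 27.2, 30.2, 14.4 and 21.2 CPM, with a log2 ratio of 0.58 (0.35 to 0.80) with si-*LINC00461* and 0.66 (0.44 to 0.88) in R-U87MG against U87MG.

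The other genes of this role stayed within 2-fold in all 3 comparisons. *PHLDA3*, whose protein competes with AKT for membrane lipids, was at 126, 131, 123 and 181 CPM in R-U87MG si-NC, R-U87MG si-HDAC6, U87MG si-NC and U87MG si-*LINC00461*. With si-*LINC00461* it was higher by 0.57 (0.50 to 0.65) on the log2 scale, and 16% of its 50-base words are shared with other annotated transcripts. *SERTAD1*, a cofactor that also regulates a cyclin-dependent kinase, was at 14.6, 21.2, 13.4 and 17.0 CPM. Its log2 ratio of 0.53 (0.27 to 0.78) was the highest of the targets with si-HDAC6, and it was 0.35 (0.11 to 0.60) with si-*LINC00461*. *CCNG1*, which encodes cyclin G1, was at 135, 128, 80.2 and 72.2 CPM, with ratios of −0.09 with si-HDAC6, −0.14 with si-*LINC00461* and 0.49 in R-U87MG against U87MG. The phosphatase gene *PPM1D*, which shuts down p53 signalling, was at 25.7, 27.9, 14.9 and 11.8 CPM, and its ratio with si-*LINC00461* was −0.32 (−0.59 to −0.06). *BTG2*, an antiproliferative gene, was at 5.89 to 11.9 CPM. The non-coding RNA *TP53TG1* was at 2.78 to 3.43 CPM and had only 35 to 58 counts, and its ratio with si-HDAC6 was −0.30 (−0.96 to 0.32).

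The receptors of the death pathway differed from each other. *TNFRSF10B*, the gene of a receptor for the death ligand TRAIL (chromosome 8, minus strand, 23020133 to 23069179), was at 298 CPM in R-U87MG si-NC, 313 after si-HDAC6, 318 in U87MG si-NC and 110 after si-*LINC00461*. The level after si-*LINC00461* was far below the other 3, with 1952 counts against 6372 in its control and a log2 ratio of −1.52 (−1.59 to −1.45), the lowest of the targets. The ratio was 0.06 (−0.001 to 0.12) with si-HDAC6 and −0.36 (−0.41 to −0.31) in R-U87MG against U87MG. *TNFRSF10A*, the gene of the other TRAIL receptor with a death domain, had 8, 4, 17 and 24 counts in R-U87MG si-NC, R-U87MG si-HDAC6, U87MG si-NC and U87MG si-*LINC00461*. It was compared only with si-*LINC00461*, where its ratio was 0.67 (−0.27 to 1.67), and no difference was detectable at this depth. *FAS*, the receptor of the Fas ligand, was at 31.9, 27.9, 13.8 and 8.27 CPM. Its ratio was −0.20 (−0.40 to −0.002) with si-HDAC6, −0.72 (−1.02 to −0.43) with si-*LINC00461* and 0.94 (0.73 to 1.16) in R-U87MG against U87MG. Exons of *ACTA2* on the opposite strand cover 8.93% of the *FAS* exon bases, and since the strand used in counting is not stated, reads of the pair may be mixed.

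The decoy receptors of TRAIL, which lack a working death domain, were in the list of further p53 targets and are set beside these genes. *TNFRSF10D* was at 144, 148, 330 and 53.7 CPM in R-U87MG si-NC, R-U87MG si-HDAC6, U87MG si-NC and U87MG si-*LINC00461*. Its log2 ratio was −2.60 (−2.70 to −2.51) with si-*LINC00461*, 0.03 (−0.06 to 0.12) with si-HDAC6 and −1.46 (−1.53 to −1.39) in R-U87MG against U87MG. Per kilobase, *TNFRSF10D* stood above *TNFRSF10B* in U87MG si-NC (93.4 against 61.7 CPM per kb) and below it in the other 3 libraries, and after si-*LINC00461* the values were 15.2 and 21.3 CPM per kb. *TNFRSF10C* was at 3.31, 3.10, 8.14 and 7.26 CPM, and its ratio with si-*LINC00461* was −0.15 (−0.49 to 0.19).

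**Figure D3:**
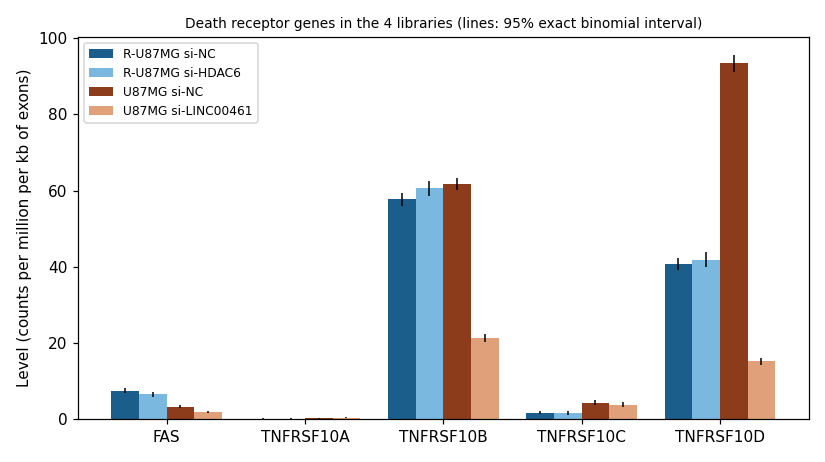
Levels of *FAS* and the 4 TRAIL receptor genes in the 4 libraries, as bars in CPM per kilobase of exons on a linear axis from 0, with 95% intervals of counting error as lines. *TNFRSF10B* and *TNFRSF10D* stand at 61.7 and 93.4 CPM per kb in U87MG si-NC and at 21.3 and 15.2 CPM per kb after si-*LINC00461*, whereas *TNFRSF10A* stays under 0.5 CPM per kb in all 4 libraries.

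Of the other apoptosis genes, *TP53I3* and *AEN* were the most different between R-U87MG and U87MG. *TP53I3*, which encodes a quinone oxidoreductase linked to reactive oxygen species (chromosome 2, minus strand, 24077433 to 24085861), was at 26.0 CPM in R-U87MG si-NC, 27.7 after si-HDAC6, 4.29 in U87MG si-NC and 6.86 after si-*LINC00461*, so that both R-U87MG libraries were far above both U87MG libraries. Its log2 ratio in R-U87MG against U87MG was 2.33 (1.995 to 2.68), the highest of the targets, and it was 0.69 (0.28 to 1.11) with si-*LINC00461*. *AEN*, an exonuclease gene (chromosome 15, plus strand, 88621296 to 88632282), was at 145, 166, 40.2 and 27.6 CPM. It too was higher in both R-U87MG libraries, with a ratio of 1.58 (1.47 to 1.70) in R-U87MG against U87MG, 0.18 (0.10 to 0.27) with si-HDAC6 and −0.53 (−0.69 to −0.37) with si-*LINC00461*.

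*TP53INP1*, the gene of a nuclear stress protein that acts in apoptosis and autophagy, was at 29.6, 34.6, 32.2 and 15.7 CPM in R-U87MG si-NC, R-U87MG si-HDAC6, U87MG si-NC and U87MG si-*LINC00461*. With si-*LINC00461* its ratio of −1.02 (−1.23 to −0.81) was just past 2-fold, and it was 0.21 (0.03 to 0.40) with si-HDAC6 and −0.38 (−0.55 to −0.21) in R-U87MG against U87MG. *ZMAT3*, which encodes a zinc-finger protein that binds RNA, was at 147, 121, 189 and 110 CPM. Its ratio was below 0 in each comparison, at −0.29 (−0.38 to −0.19) with si-HDAC6, −0.77 (−0.85 to −0.69) with si-*LINC00461* and −0.63 (−0.71 to −0.56) in R-U87MG against U87MG. *SUSD6*, the gene of a membrane protein, was above 0 in both knockdowns. It was at 30.8, 36.7, 26.2 and 43.2 CPM, with a ratio of 0.24 (0.06 to 0.42) with si-HDAC6 and 0.74 (0.57 to 0.90) with si-*LINC00461*, where it was the highest of the targets. *CYFIP2*, which acts on the actin cytoskeleton, was at 57.8, 58.7, 56.6 and 73.9 CPM, and *TRIAP1*, a small inhibitor of apoptosis, was at 24.2, 27.2, 15.6 and 14.6 CPM. Their ratios with si-*LINC00461* were 0.40 (0.28 to 0.52) and −0.09 (−0.33 to 0.16). Exons of *ADAM19* on the opposite strand cover 0.591% of the *CYFIP2* exon bases, and reads of this pair may be mixed. *ADAM19* had 4480 counts in U87MG si-NC and 9990 after si-*LINC00461*.

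Of the 4 genes of DNA repair and nucleotide supply, *DDB2* had the largest difference. *DDB2*, which recognises UV damage for nucleotide excision repair and whose matched response element is printed above (chromosome 11, plus strand, 47214465 to 47239240), was at 65.3 CPM in R-U87MG si-NC, 58.4 after si-HDAC6, 56.5 in U87MG si-NC and 20 after si-*LINC00461*, with 356 counts against 1132 in the last pair. Its log2 ratio was −1.48 (−1.66 to −1.31) with si-*LINC00461* and −0.17 (−0.31 to −0.04) with si-HDAC6, and the si-NC libraries of R-U87MG and U87MG differed by −0.05 (−0.18 to 0.07). *XPC*, a damage sensor of the same repair pathway, had no such difference. It was at 63.1, 68.2, 46.0 and 45.2 CPM, with a ratio of −0.01 (−0.15 to 0.13) with si-*LINC00461*, and 6.63% of its exon bases lie opposite exons of *LSM3*, which had 296 to 451 counts, so that reads of this pair too may be mixed. *POLH*, a polymerase that copies past damaged bases, was at 26.9, 25.0, 25.7 and 14.3 CPM, and its ratio with si-*LINC00461* was −0.82 (−1.05 to −0.60). *RRM2B*, the p53-inducible subunit of ribonucleotide reductase, was at 86.7, 72.4, 112 and 124 CPM. Its ratio was −0.27 (−0.39 to −0.15) with si-HDAC6, −0.63 (−0.72 to −0.53) in R-U87MG against U87MG and 0.17 (0.09 to 0.26) with si-*LINC00461*.

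Among the genes of metabolism, redox balance and autophagy, *CMBL* alone passed 2-fold in any comparison. *CMBL*, a hydrolase gene (chromosome 5, minus strand, 10275875 to 10308026), was at 42.4 CPM in R-U87MG si-NC, 39.7 after si-HDAC6, 14.1 in U87MG si-NC and 15.7 after si-*LINC00461*. Both R-U87MG libraries were above both U87MG libraries, with a log2 ratio of 1.32 (1.12 to 1.53) between the si-NC libraries and of −0.10 and 0.17 in the knockdowns. *DRAM1*, a lysosomal membrane protein of autophagy, was at 30, 30.2, 19.8 and 29.5 CPM and was higher with si-*LINC00461* by 0.59 (0.40 to 0.78). *FDXR*, the mitochondrial ferredoxin reductase, was at 21.3, 25.0, 13.9 and 10.1 CPM, with ratios of 0.22 (−0.004 to 0.44) with si-HDAC6 and −0.44 (−0.72 to −0.16) with si-*LINC00461*. *SESN1*, a sestrin that restrains growth signalling, was at 17.3, 16.4, 20.8 and 21.5 CPM with a ratio of −0.53 (−0.75 to −0.31) in R-U87MG against U87MG. *TIGAR*, which diverts sugar from glycolysis, was at 24.2, 25.2, 15.1 and 15.2 CPM. Of its exon bases 42.6% are shared with *AC008012.1*, a protein-coding gene on the same strand that has no counts of its own in these data. *SPATA18*, a gene of mitochondrial quality control, was at 13, 13.8, 8.39 and 7.43 CPM. *PANK1*, a kinase of coenzyme A synthesis, was at 5.89 to 7.54 CPM and *ACER2*, a ceramidase, at 1.35 to 2.04 CPM with 20 to 34 counts. *ACER2* had the lowest ratio with si-HDAC6, −0.36, and its interval was −1.25 to 0.46. Exons of the pseudogene *AL157400.5* cover 8.13% of the *PANK1* exon bases on the same strand. Of the 50-base words of *ACER2*, 12.2% are shared with other annotated transcripts.

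*GDF15*, the secreted target and a stress cytokine of the TGF-β superfamily (chromosome 19, plus strand, 18374731 to 18389176), was at 124 CPM in R-U87MG si-NC, 163 after si-HDAC6, 59.1 in U87MG si-NC and 58.7 after si-*LINC00461*. The log2 ratio was 0.38 (0.30 to 0.47) with si-HDAC6, 0.01 (−0.12 to 0.13) with si-*LINC00461* and 0.81 (0.70 to 0.91) in R-U87MG against U87MG. Both R-U87MG libraries were above both U87MG libraries in CPM, and the difference between the ratios of the knockdowns was not tested.

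The 2 knockdowns share no library and can be set side by side gene by gene. *LINC00461* itself was also lower with si-HDAC6, with 80 counts against 154 and a log2 ratio of −0.55 (−0.96 to −0.15). Of the 31 targets compared in both, 10 were higher in both, 5 lower in both and 16 opposite, so that 48.4% had the same sign. Of all 12413 genes compared in both, 3300 were higher in both, 3531 lower in both and 5582 opposite (55% with the same sign). Signs of ratios near 0 depended on the scaling. For example, *GDF15* with si-*LINC00461* was at 0.006 with TMM and −0.027 with DESeq2 size factors. The 5 targets lower by 2-fold with si-*LINC00461* had ratios of −0.17 to 0.21 with si-HDAC6. *ZMAT3*, *FAS*, *DDB2*, *POLH* and *CCNG1* were the 5 lower in both.

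**Figure D4:**
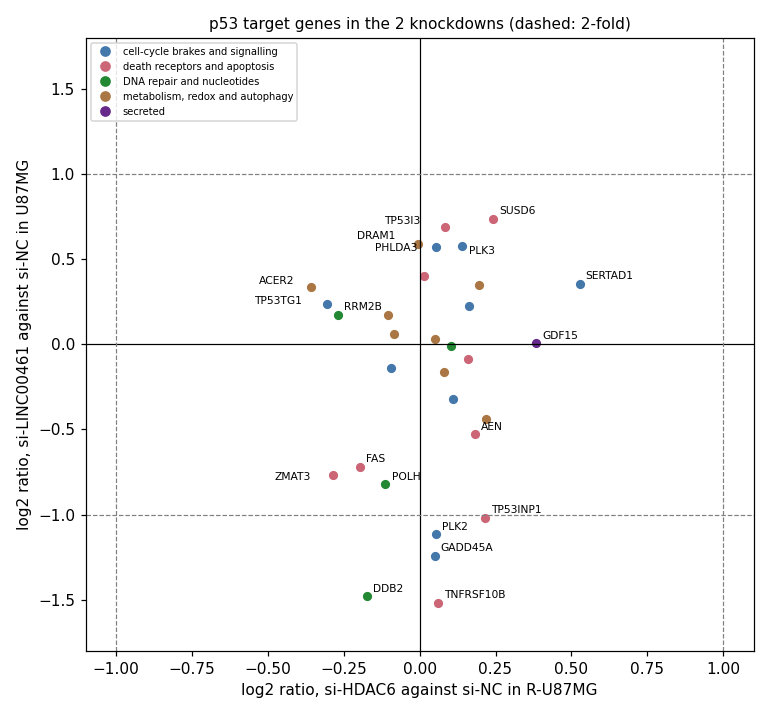
Log2 ratios of the 31 p53 target genes compared in both knockdowns, with si-HDAC6 in R-U87MG on the x axis and si-*LINC00461* in U87MG on the y axis, coloured by role, and 2-fold as dashed lines. The points spread from −1.52 to 0.74 on the y axis and from −0.36 to 0.53 on the x axis, and the scales of the axes differ.

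A list of 24 further p53 targets was described in the same way. With si-HDAC6, 1 of 22 compared was higher by 2-fold and 0 lower, against 0.694% and 0.747% of all genes. This was *E2F7*, a repressor of cell-cycle genes, with 21 counts against 11 and a log2 ratio of 1.29 (0.21 to 2.52), followed by *SESN2* at 0.31 (0.22 to 0.41), while the lowest were *FUCA1* at −0.31 (−0.91 to 0.26) and *PMAIP1* at −0.19 (−0.37 to −0.01). With si-*LINC00461*, 1 of 24 was higher and 4 were lower by 2-fold or more (4.17% and 16.7%, against 5.42% and 8.17% of all genes), and the median was −0.25. Beside *TNFRSF10D*, the lower genes were *APAF1*, the scaffold of the apoptosome, at −1.77 (−2.07 to −1.48), the BH3-only gene *PMAIP1* at −1.09 (−1.41 to −0.77) and the receptor kinase gene *EPHA2* at −1.03 (−1.17 to −0.89). The highest were *SFN*, with 29 counts against 16 and a ratio of 1.03 (0.12 to 2.02), and the fucosidase gene *FUCA1* at 0.84 (0.57 to 1.13).

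In R-U87MG against U87MG, 1 of 23 further targets was higher and 8 were lower by 2-fold or more (4.35% and 34.8%, against 11.2% and 15% of all genes), with a median of −0.08. *PMAIP1* was higher, with 637 counts against 281 and a log2 ratio of 1.18 (0.98 to 1.39), and *RPS27L* followed at 0.57 (0.45 to 0.68). *EDA2R*, a receptor gene of the TNF receptor family, had 3 counts against 663, a ratio of −7.56 (−10.1 to −6.23). *E2F7* had 11 counts against 1849, a ratio of −7.33 (−8.39 to −6.55). The remaining 6 were *TNFRSF10C*, *TNFRSF10D*, *FUCA1*, *CES2*, *NINJ1* and *TRIM22*, at −1.56 to −1.15.

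The genes of a second stress response that overlap with p53 in their targets were also listed. Of 10 genes of ATF4 and CHOP, 9 were higher and 1 lower with si-HDAC6, none by 2-fold, with a median log2 ratio of 0.29 and an interval above 0 for 8 of them, whereas 48.9% of all genes were higher and 13.8% had an interval above 0. The highest were *CHAC1*, an enzyme that degrades glutathione, at 0.60 (0.35 to 0.85) and *DDIT3*, which encodes CHOP, at 0.35 (0.20 to 0.51), and the lowest were *VLDLR* at −0.06 (−0.22 to 0.10) and *PSAT1* at 0.01 (−0.10 to 0.11). With si-*LINC00461*, 1 was higher and 2 were lower by 2-fold or more (5.42% and 8.17% of all genes), with a median of −0.36. *ATF3* was the higher one at 1.09 (0.92 to 1.26), with *SESN2*, which is in both lists, next at 0.51 (0.40 to 0.62), and the asparagine synthetase gene *ASNS* at −2.80 (−3.02 to −2.60) and the serine synthesis gene *PSAT1* at −2.38 (−2.53 to −2.23) were the lower ones. In R-U87MG against U87MG 2 were higher and 2 lower by 2-fold or more (11.2% and 15% of all genes), and the highest were *DDIT3* at 1.69 (1.48 to 1.92) and *TRIB3* at 1.19 (0.99 to 1.39), and the lowest were *DDIT4* at −4.10 (−4.19 to −4.01) and *VLDLR* at −2.94 (−3.06 to −2.83). Whether ATF4 or CHOP have a part in the levels of *GDF15* and *TNFRSF10B* was not tested.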

How the data were processed

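RNA-seq of 4 libraries was analysed from tables of estimated counts per Ensembl gene that the authors deposited, multiplied by 1 factor per library (0.869, 1.15, 0.939 and 1.06 for R-U87MG si-NC, R-U87MG si-HDAC6, U87MG si-NC and U87MG si-*LINC00461*). Libraries were strand-specific, and the submitters' processing notes name bcl2fastq, Trimmomatic 0.36, HISAT2 and GRCh38.p13. The counting program, annotation and counting strand are not given in the sources used here. Values were divided by the factor and rounded, and 93.4% to 94.1% of the values above 0 were within 0.02 of a whole count. Of the 32 members 31 had whole counts in all 4 libraries (*PANK1* did not). Symbols, positions and exon lengths were from GENCODE 29, and 57888 of 58226 IDs matched.

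Each pair was normalized with TMM (edgeR 4.0.16, R 4.3.3), and ratios and intervals were computed over the whole table with Python 3.11.15 and scipy 1.17.1. The procedure was run on simulated counts of the knockdown pairs, drawn with counting error only. R-U87MG against U87MG was not simulated. A count of 3 corresponded to 0.150 to 0.238 CPM, the floor of detection. All members were accounted for. Values were given for members past 2-fold and for the 5 highest and 5 lowest of each comparison, and, of the other lists, for the 2 highest and 2 lowest genes and those past 2-fold. The regulators of p53 are in the closing section. The members and lists were chosen with earlier results of these data known. Alternatives were total counts, DESeq2 1.42.0 size factors, upper-quartile scaling, TMM over all 4 libraries, the authors' scaling, pseudocounts of 0.1 and 5, thinning to the smallest library, a minimum of 5 CPM or no minimum, a 1.5-fold threshold, intervals wholly beyond 2-fold, and means in place of medians.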

Additional observations from a re-analysis of the deposited data

How the results depend on the processing

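With si-HDAC6, no target passed 2-fold under any alternative, nor the threshold of 1.5-fold. With si-*LINC00461*, 4 targets were higher and 8 lower at 1.5-fold (0 and 5 at 2-fold), against 14.2% and 16.8% of all genes at 1.5-fold. With an interval wholly beyond 2-fold 3 were lower, and the share of all genes by this rule was not computed. After thinning and by upper-quartile scaling 4 were lower (without *TP53INP1*). Of 13210 genes 1034 were lower by 2-fold or more by upper-quartile scaling, against 1079 with TMM. The mean of the targets was −0.13 beside a median of 0.02. In R-U87MG against U87MG, total counts gave 7 higher targets and a median of 0.60, the authors' scaling a median of 0.22 (0.34 with TMM), 1.5-fold 8 higher and 2 lower, and no minimum of counts 1 lower (*TNFRSF10A*). By total counts *POLH* (0.066), *PHLDA3* (0.031) and *CYFIP2* (0.031) turned above 0. Total counts give 2399 higher and 1494 lower genes by 2-fold or more in this comparison, TMM 1494 and 2008, and the authors' scaling 1234 and 2283. The other 95 values for the lists stayed within 1.5 times, or within 0.1 for medians, and 719 ratios of single targets moved by less than their counting interval, whereas 30 moved by more, all of them in R-U87MG against U87MG by total counts or the authors' scaling. No paired analysis was possible because each condition has 1 library, and no library could be left out. Depth limits *TNFRSF10A*, *ACER2* and *TP53TG1*, whose counts are 58 or fewer.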

Other observations

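A list of genes that regulate p53 itself was described in the same way. Of 16 regulators and cofactors none passed 2-fold with si-HDAC6 (1.44% of all genes), where the highest were *MDM4* at a log2 ratio of 0.29 (0.09 to 0.50) and *KAT5* at 0.18 (0.005 to 0.36) and the lowest *COP1* at −0.36 (−0.54 to −0.18) and *SETD7* at −0.17 (−0.24 to −0.11). With si-*LINC00461*, 8 were higher and 8 lower, and 1 passed 2-fold (13.6% of all genes). This was *HIPK2*, a kinase that phosphorylates p53, with 8735 counts against 22933 and a ratio of −1.21 (−1.24 to −1.17). *PPP1R13B* followed at −0.75 (−1.08 to −0.42), and the highest were *TP53RK* at 0.39 (0.19 to 0.60) and *CREBBP* at 0.31 (0.21 to 0.42). In R-U87MG against U87MG none passed 2-fold (26.2% of all genes), and the ubiquitin ligase gene *COP1*, with 701 counts against 352 and a ratio of 0.996 (0.81 to 1.19), stood just under it. *TP53RK* was at 0.79 (0.60 to 0.98), and the lowest were *PPP1R13L* at −0.69 (−1.01 to −0.38) and *TP53BP2* at −0.53 (−0.61 to −0.44).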
